A study of Homo sapiens with 12 samples.

Results

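Expression of 10 genes of mitochondrial biogenesis that are counted among the targets of MYC proteins was described in neuroblastoma cells given the BET bromodomain inhibitor JQ1. The genes were PPRC1, DCTPP1, TFB2M, SUPV3L1, PUS1, NDUFAF4, HSPD1, HSPE1, PHB1 (formerly PHB) and TBRG4, chosen by symbol and not by a threshold on their values. The choice was made with earlier results of these data known, so the comparisons with all genes below are a description. The 10 genes were measured by 22 probe sets that name exactly 1 gene, among 44988 such probe sets for 18132 genes. Whether MYC proteins bind these genes was not measured here. RNA of 12 samples was hybridised to the Affymetrix PrimeView array, 1 array a sample, in 4 groups of 3. The groups were BE(2)-C cells with 1 µM JQ1 for 24 h, BE(2)-C cells with DMSO, the solvent, for 24 h, Kelly cells with 1 µM JQ1 for 24 h and Kelly cells with DMSO for 24 h. Both are established human neuroblastoma lines, and both are known to carry extra copies of MYCN, so no group here lacks that feature. The labels give triplicates without saying that the cultures were separate, so that p-values measure the spread between these arrays, which may be technical.

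Mitochondria keep a small genome of their own, but nearly all of their proteins are encoded in the nucleus and imported. Building more mitochondria therefore needs nuclear genes that copy and transcribe that genome, mature its RNA, fold and hold imported proteins and assemble the respiratory chain. MYC and MYCN bind E-boxes (CACGTG) with their partner MAX and are known to raise many of these genes in growing cells. JQ1 displaces BET proteins, which read acetylated histones and help start transcription, and in MYCN-amplified cells it is known to lower MYCN.

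The 12 arrays had median intensities of 61.4 to 67.3, and replicate arrays correlated at 0.952 to 0.996. All 8 neuroblast markers measured lay above the median gene, and none of the 7 haematopoietic markers did. For epithelial markers 3 of 7 lay above the median gene, and for fibroblast and Schwann cell markers 1 of 7. The 9 bacterial control probe sets, which report the labelled RNA spiked into each hybridisation, varied from array to array. Their mean log2 signal was 11.41 ± 1.20 in BE(2)-C with JQ1 and 11.20 ± 1.54 in BE(2)-C with DMSO, and 12.94 ± 0.69 in Kelly with JQ1 and 11.90 ± 1.29 in Kelly with DMSO (SD, n = 3 each). The signal was highest on average in Kelly with JQ1, and a fit with this signal as a term was run for every comparison.

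For 9 of the 10 genes RefSeq promoter windows (GRCh38.p14, 250 bases before and 50 after the start, 10 windows in all because HSPD1 has 2) were searched on both strands for 4 motifs. The E-box CACGTG, the letters that MYC and MAX dimers bind, was found for 3 of 9 genes, DCTPP1, HSPD1 and HSPE1, against 8.77% of the 27305 genes with a window. In DCTPP1 it lies at -9 to -4 from the start that the window uses and in HSPE1 at -22 to -17. For DCTPP1 that start may lie downstream of another start of the gene, so its E-box may lie inside the gene and not before it. Which start these cells use was not measured. HSPD1 and HSPE1 are divergent neighbours whose windows share 204 bases, and the E-box of HSPD1, at -88 to -83, is the same run of 6 bases (chr2:197500357-197500362) as that of HSPE1. The variant E-box CACGCG was found for HSPD1 alone, against 13.5% of all genes. The NRF1 core (GCGC, any base, then TGCGC) was found for HSPD1 and HSPE1, at 1 shared place, against 6.98% of all genes. The ETS core CCGGAAG was found for NDUFAF4 and TBRG4, against 12.2% of all genes. None of these matches overlaps another of a different motif. A match is a description of letters in the window, and no binding was measured. The 3 windows below are shown because PPRC1 and DCTPP1 had the largest falls of the 10 in BE(2)-C and because HSPE1 carries the E-box shared with HSPD1. Each runs from 250 bases before the start to 30 after it, 5′ to 3′ on the gene's strand, with the E-box in capitals.
PPRC1 (chr10:102132790-102133069, plus strand): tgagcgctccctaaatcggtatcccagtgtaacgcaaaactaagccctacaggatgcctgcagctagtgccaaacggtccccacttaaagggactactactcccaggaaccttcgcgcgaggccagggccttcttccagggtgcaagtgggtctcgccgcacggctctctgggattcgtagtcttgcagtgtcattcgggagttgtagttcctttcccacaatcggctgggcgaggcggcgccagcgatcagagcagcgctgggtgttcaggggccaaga
DCTPP1 (chr16:30429771-30430050, minus strand): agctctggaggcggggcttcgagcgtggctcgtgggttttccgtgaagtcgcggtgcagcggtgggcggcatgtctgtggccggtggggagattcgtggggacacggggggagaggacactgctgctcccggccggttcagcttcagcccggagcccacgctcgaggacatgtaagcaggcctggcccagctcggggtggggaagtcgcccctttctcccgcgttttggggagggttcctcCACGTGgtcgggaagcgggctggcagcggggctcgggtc
HSPE1 (chr2:197500129-197500408, plus strand): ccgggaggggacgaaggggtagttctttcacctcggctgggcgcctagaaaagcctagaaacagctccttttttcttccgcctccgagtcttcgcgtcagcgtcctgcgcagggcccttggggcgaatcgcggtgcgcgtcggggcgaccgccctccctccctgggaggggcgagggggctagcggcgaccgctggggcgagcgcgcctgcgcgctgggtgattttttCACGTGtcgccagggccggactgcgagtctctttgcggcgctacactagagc
The PPRC1 window has no CACGTG, and the DCTPP1 and HSPE1 windows have 1 each. Bases outside the windows were not searched.

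With JQ1 in BE(2)-C, 4 of the 10 genes fell, PPRC1, DCTPP1, PUS1 and NDUFAF4, where 2.51% of all 18132 genes passed in that direction. In Kelly 2 of 10 fell, PPRC1 and SUPV3L1, where 4.73% of all genes did. None of the 10 rose in either line, where 2.18% of all genes rose in BE(2)-C and 1.76% in Kelly. A gene was counted where its limma test, adjusted by Benjamini-Hochberg over all genes, gave a p under 0.05, and values are log2 intensities of the gene's probe set with the highest mean. The median change of the 10 was -0.67 in BE(2)-C, against -0.01 for all genes, and -0.36 in Kelly, against 0.08 for all genes. All 10 changes were below 0 in BE(2)-C, as were 51.6% of all genes, and 9 of 10 in Kelly, as were 40.6% of all genes. The JQ1 arrays lay wholly below the DMSO arrays for 7 genes in BE(2)-C, where 10.7% of all genes did so, and for 3 in Kelly, where 11.6% did. PPRC1 was the only one of the 10 that passed in both lines, as 1.16% of all genes did in the lower direction, and PPRC1, DCTPP1 and SUPV3L1 were the 3 whose groups were apart in both, as 4.73% of all genes were. Averaged over the lines 6 of 10 fell, adding TFB2M to those that fell in a line, where 7.04% of all genes fell, with a median of -0.51 against 0.06 for all genes. In bulk RNA fewer cells of a type and less RNA per cell cannot be told apart, and the between-array normalization leaves a change in total RNA unseen.

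**Figure D1:**
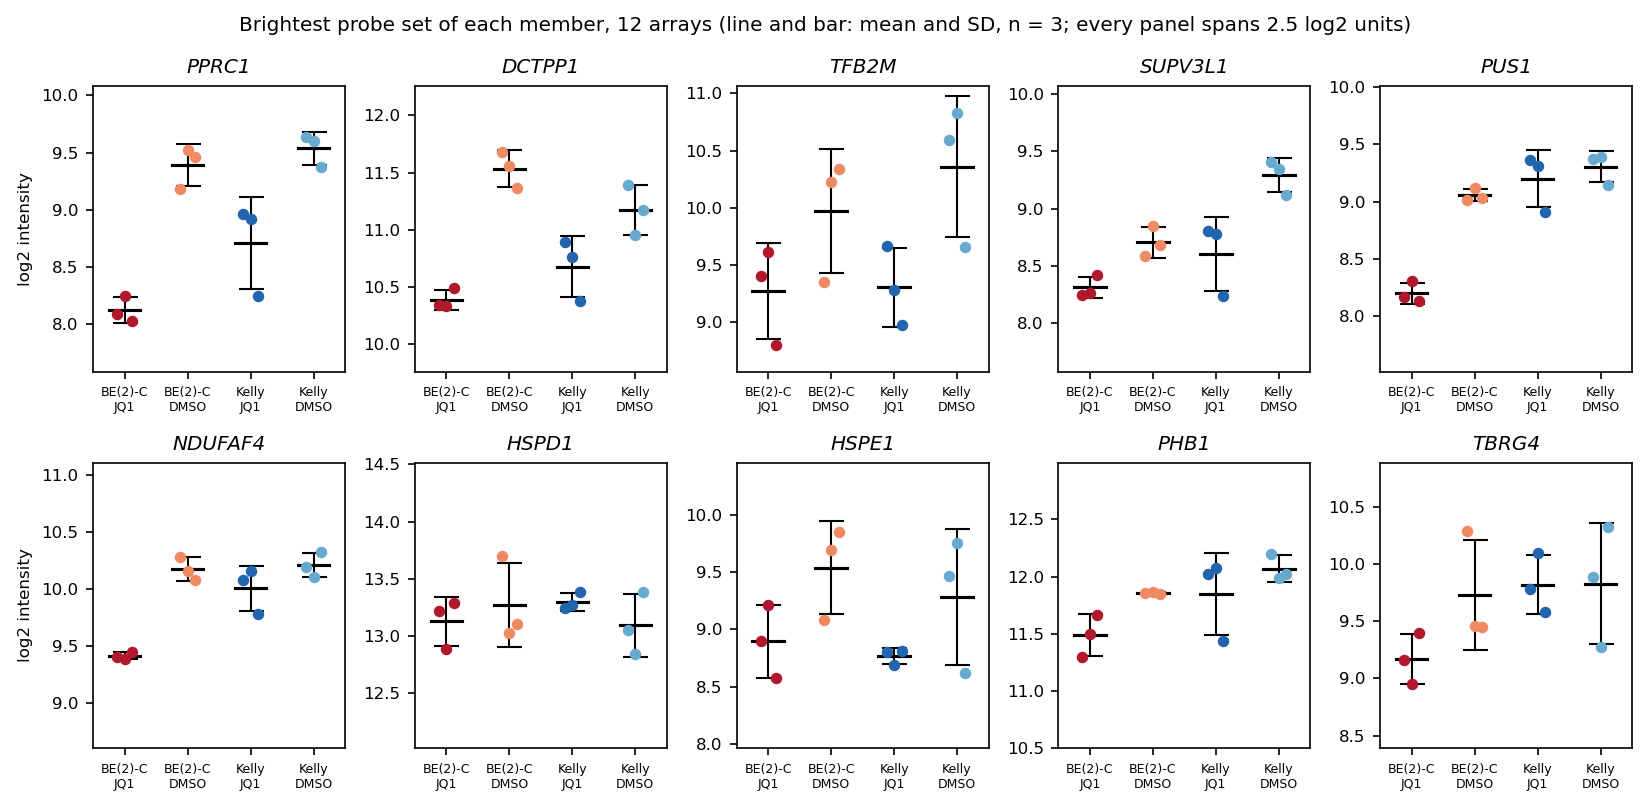
Log2 intensity of each gene's brightest probe set (vertical axis) in the 4 groups (horizontal axis), with 1 point an array and the mean and SD over 3 arrays as line and bar. PPRC1 in BE(2)-C shows the widest gap, 8.03 to 8.25 with JQ1 against 9.18 to 9.52 with DMSO, while HSPD1 overlaps in both lines.

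PPRC1 encodes a coactivator of the PGC-1 family that is induced when cells are stimulated to grow and that drives nuclear genes for respiration. It had log2 intensities of 8.09, 8.25 and 8.03 in BE(2)-C with JQ1, against 9.18, 9.52 and 9.46 in BE(2)-C with DMSO. In Kelly it had 8.96, 8.91 and 8.24 with JQ1, against 9.64, 9.60 and 9.37 with DMSO. The groups did not overlap in either line, and the third Kelly JQ1 array was well below the other 2. The log2 fold change was -1.27 (SE 0.198) in BE(2)-C, adjusted p 0.00289, a level 2.41 times lower than with DMSO. It was -0.83 (SE 0.198) in Kelly, adjusted p 0.0251. The Kelly call did not hold without the third Kelly JQ1 array (-0.60, adjusted p 0.0569), without the first or the second DMSO array (-0.78, p 0.107, and -0.80, p 0.0900, both adjusted), or when only the Kelly arrays were fitted (adjusted p 0.110). The average over the lines, -1.05 (SE 0.140), passed with every alternative tried, at adjusted p of 3.85e-05 to 0.00209.

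DCTPP1, a pyrophosphatase that breaks down dCTP and damaged forms of it, had 10.34, 10.33 and 10.49 in BE(2)-C with JQ1, against 11.68, 11.56 and 11.37 with DMSO. Its Kelly values were 10.89, 10.76 and 10.38 with JQ1, against 11.39, 10.95 and 11.17 with DMSO. The groups were apart in both lines, by a wide gap in BE(2)-C and a narrow one in Kelly. The fall in BE(2)-C was -1.15 (SE 0.176) with an adjusted p of 0.00284, a level 2.21 times lower than with DMSO. The Kelly difference, -0.49, did not pass (adjusted p 0.123, 95% interval -0.88 to -0.11). The average, -0.82, passed at an adjusted p of 0.000992.

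TFB2M melts the DNA at mitochondrial promoters for the mitochondrial RNA polymerase. Its levels were 9.40, 9.61 and 8.80 in BE(2)-C with JQ1, against 9.35, 10.23 and 10.34 with DMSO. Kelly gave 9.66, 9.28 and 8.97 with JQ1, against 10.59, 10.83 and 9.66 with DMSO. Groups overlapped in BE(2)-C and met in Kelly, where the third DMSO array was about level with the first JQ1 array. The log2 fold change was -0.70 in BE(2)-C (adjusted p 0.380) and -1.06 in Kelly (adjusted p 0.0927), neither of which passed. The Kelly difference passed without the third Kelly DMSO array (-1.41, adjusted p 0.0181) and without the first BE(2)-C DMSO array (-1.06, adjusted p 0.0472). The average, -0.88 (SE 0.243), passed narrowly at an adjusted p of 0.0351, and that call was lost in 8 of the 12 fits that left out 1 array (adjusted p 0.0662 to 0.0934 in those). The level of TFB2M moved with the control signal of the array (slope -0.39 log2 per log2 unit of control signal, adjusted p 5.75e-05). With the control signal in the fit the change was -0.62 in BE(2)-C (adjusted p 0.00395) and -0.65 in Kelly (adjusted p 0.00527).

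SUPV3L1, PUS1 and TBRG4 act on RNA. SUPV3L1 is the helicase of the mitochondrial RNA degradosome, and it had 8.25, 8.27 and 8.42 in BE(2)-C with JQ1, against 8.59, 8.85 and 8.68 with DMSO. The Kelly values were 8.80, 8.78 and 8.23 with JQ1, against 9.41, 9.34 and 9.12 with DMSO. JQ1 arrays lay below DMSO arrays in both lines. The fall passed in Kelly, -0.69 (SE 0.177, adjusted p 0.0361), and the BE(2)-C difference of -0.40 did not (adjusted p 0.303). The Kelly call is close to the threshold: it was lost in 9 of the 12 fits that left out 1 array, at adjusted p of 0.0501 to 0.153, and with quantile normalization (-0.47, adjusted p 0.0591). The average, -0.54, had an adjusted p of 0.0135 and passed in every alternative run.

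PUS1 writes pseudouridine into tRNA of the cytosol and of mitochondria. Its levels were 8.16, 8.30 and 8.13 in BE(2)-C with JQ1, against 9.01, 9.12 and 9.03 with DMSO. In Kelly they were 9.37, 9.31 and 8.91 with JQ1, against 9.37, 9.39 and 9.15 with DMSO. The BE(2)-C groups were far apart for their spread, and the Kelly groups overlapped. The fall in BE(2)-C was -0.86 (SE 0.157, adjusted p 0.00778), and the Kelly difference was -0.11 (adjusted p 0.695, 95% interval -0.45 to 0.23). The other 2 PUS1 probe sets gave -0.69 and -0.49 in BE(2)-C, neither passing when all probe sets were tested, and -0.08 and -0.06 in Kelly.

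TBRG4 is an RNA-binding protein that keeps certain mitochondrial mRNAs stable. It had 9.16, 8.95 and 9.39 in BE(2)-C with JQ1, against 10.29, 9.46 and 9.45 with DMSO, and 9.78, 10.09 and 9.58 in Kelly with JQ1, against 9.89, 9.27 and 10.32 with DMSO. The BE(2)-C groups were just apart and the Kelly groups crossed. Neither difference passed, -0.56 in BE(2)-C (adjusted p 0.409) and -0.01 in Kelly (adjusted p 0.988). TBRG4 moved with the control signal in the other direction from TFB2M (slope 0.26, adjusted p 0.00426), and with that signal in the fit the BE(2)-C value was -0.61 (adjusted p 0.0330) and the Kelly value -0.28 (adjusted p 0.395).

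NDUFAF4 helps assemble complex I, the entry point of the respiratory chain. It had 9.41, 9.39 and 9.45 in BE(2)-C with JQ1, against 10.28, 10.16 and 10.08 with DMSO. Kelly gave 10.08, 10.16 and 9.79 with JQ1, against 10.19, 10.11 and 10.32 with DMSO. The BE(2)-C groups were well apart, and those of Kelly overlapped. NDUFAF4 fell by 0.76 on the log2 scale in BE(2)-C (SE 0.146, adjusted p 0.0104), and the Kelly difference was -0.20 (adjusted p 0.415). Leaving out the first or the second BE(2)-C JQ1 array brought the adjusted p to 0.0555 and 0.0556. A second probe set gave -0.79 in BE(2)-C, adjusted p 0.0213 over all probe sets. The dimmest of the 3 gave -0.84 in BE(2)-C and -0.95 in Kelly, where it did not pass but its groups did not overlap. It moved with the control signal of the array (slope -0.35, adjusted p 0.000233 over all probe sets). Within groups it did not follow the brightest probe set (r = -0.27).

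HSPD1 and HSPE1 encode the mitochondrial chaperonin and its lid, which fold imported proteins. HSPE1 had 8.90, 9.21 and 8.57 in BE(2)-C with JQ1, against 9.08, 9.69 and 9.85 with DMSO, and 8.80, 8.69 and 8.81 in Kelly with JQ1, against 9.47, 9.76 and 8.62 with DMSO. Groups overlapped in both lines, with 1 low DMSO array in each, and neither difference passed (-0.65, adjusted p 0.295, in BE(2)-C and -0.52, adjusted p 0.296, in Kelly). HSPE1 also moved with the control signal (slope -0.29, adjusted p 0.000665), and with it in the fit the BE(2)-C value was -0.58, adjusted p 0.0148, and the Kelly value shrank to -0.21, adjusted p 0.439. Without the third Kelly DMSO array the Kelly difference was -0.85 and passed (adjusted p 0.0439). The average, -0.58 (adjusted p 0.0922), passed without that array (-0.75, adjusted p 0.00986) or without the first BE(2)-C DMSO array (-0.70, adjusted p 0.0325). HSPD1 had 13.22, 12.88 and 13.29 in BE(2)-C with JQ1, against 13.69, 13.02 and 13.10 with DMSO. In Kelly it had 13.24, 13.27 and 13.38 with JQ1, against 13.05, 12.84 and 13.38 with DMSO. Its values overlapped in both lines, with differences of -0.14 (95% interval -0.59 to 0.30) and 0.21 (95% interval -0.24 to 0.65). Neither difference passed on this probe set (adjusted p 0.994 and 0.554).

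The 7 HSPD1 probe sets did not behave alike. The other 4 bright ones, with mean log2 intensities of 12.1 to 12.4, had JQ1 differences of -0.43 to -0.31 in BE(2)-C and -0.27 to -0.10 in Kelly, none passing. Within groups each of these 4 ran opposite to the brightest, at r of -0.93 to -0.89 over the 12 arrays, as did 2 dim ones near 4.5 at -0.62 and -0.47. The brightest rose with the control signal (slope 0.19, adjusted p 0.00264 over all probe sets), and the other 4 bright ones had slopes of -0.20 to -0.09, of which 3 passed. So the probe set that stands for HSPD1 and the others moved in opposite directions with the array, and what part the hybridisation had in this was not tested. The mean of the 7 probe sets gave a difference between the lines under DMSO, BE(2)-C higher by 0.49 (adjusted p 0.0209), which the brightest alone did not (0.18, adjusted p 0.767). That mean gives the 2 dim probe sets, with differences of 0.64 and 0.60, the same weight as the bright ones. The other 4 bright ones had differences of 0.42 to 0.54.

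**Figure D2:**
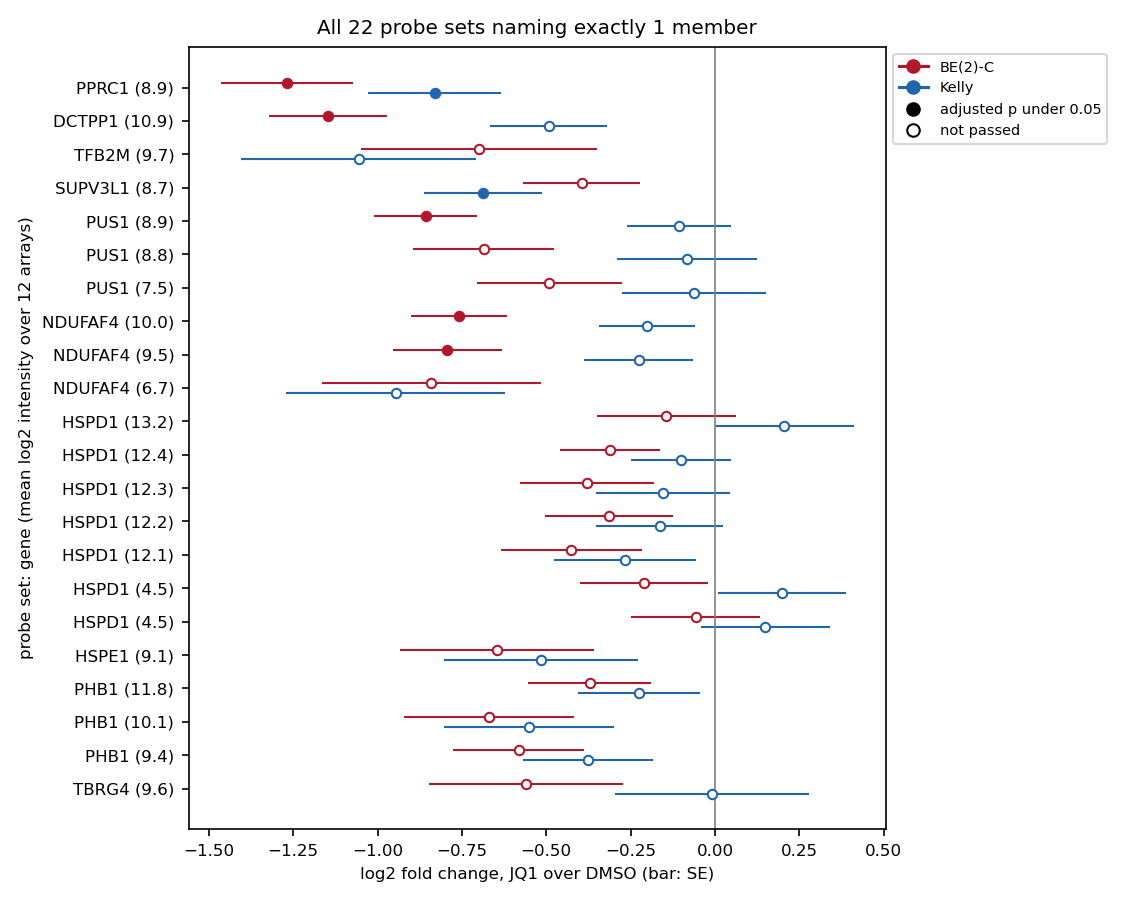
Log2 fold change, JQ1 over DMSO, with its SE (horizontal axis) for each of the 22 probe sets (vertical axis, named by gene and mean log2 intensity), in BE(2)-C and in Kelly, filled where the test over all probe sets passed. All 22 points of BE(2)-C lie below 0 and 5 are filled, and 19 of 22 points of Kelly lie below 0 with 2 filled.

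PHB1 forms ring complexes with PHB2 in the inner mitochondrial membrane. It had 11.30, 11.50 and 11.67 in BE(2)-C with JQ1, against 11.86, 11.87 and 11.85 with DMSO, and 12.03, 12.08 and 11.43 in Kelly with JQ1, against 12.20, 11.99 and 12.03 with DMSO. JQ1 arrays were below DMSO arrays in BE(2)-C alone. The differences were -0.37 (adjusted p 0.383) in BE(2)-C and -0.23 (adjusted p 0.466) in Kelly, and neither passed. Its other 2 probe sets gave -0.67 and -0.58 in BE(2)-C and -0.55 and -0.38 in Kelly, without passing.

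Over all 22 probe sets the JQ1 difference was below 0 for 22 in BE(2)-C and 19 in Kelly. Tested over all 44988 probe sets 5 fell in BE(2)-C, where 1.56% of all did, and 2 fell in Kelly, where 3.39% did. In 14 of 22 in BE(2)-C and 4 of 22 in Kelly the JQ1 arrays lay wholly below the DMSO arrays, as they did for 9.29% of all probe sets in BE(2)-C and 10.9% in Kelly. Probe sets of 1 gene share its RNA and are not independent.

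Of the arrays with JQ1 in Kelly the third had the lowest value of its group for 8 of the 10 genes, PPRC1, DCTPP1, TFB2M, SUPV3L1, PUS1, NDUFAF4, PHB1 and TBRG4, and it had the highest control signal of all 12 arrays, 13.65. Without it no Kelly call was left (0 of 10), whereas all 4 BE(2)-C calls passed. It was the highest of its group for HSPD1 and HSPE1.

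**Figure D3:**
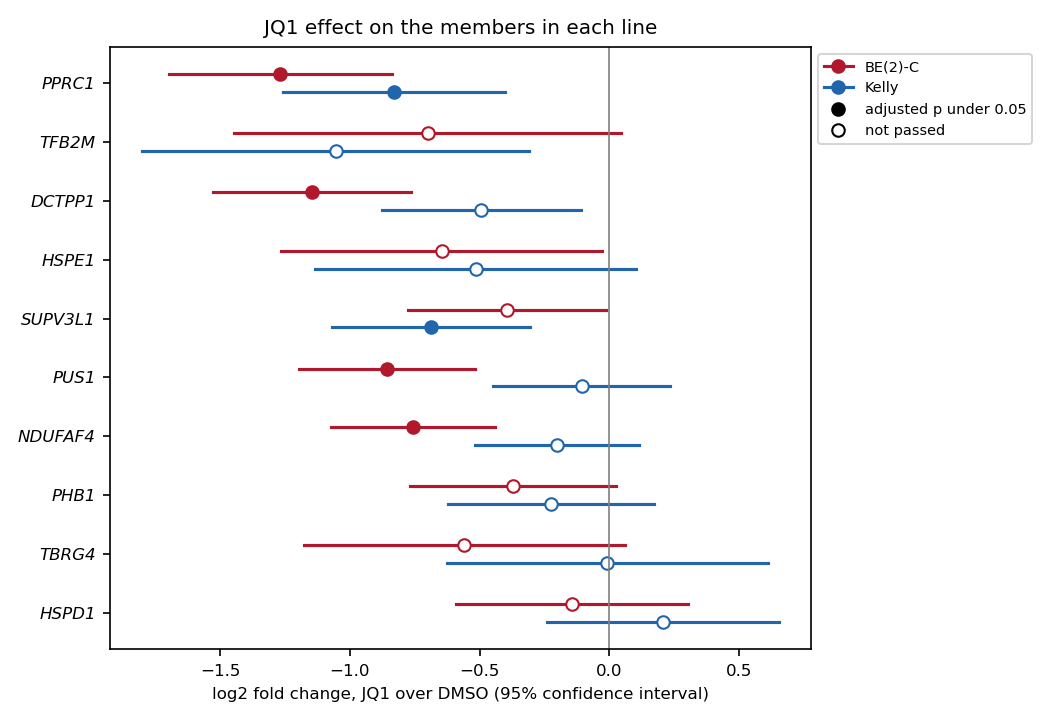
Log2 fold change, JQ1 over DMSO, with its 95% interval (horizontal axis) for each of the 10 genes (vertical axis) in BE(2)-C and in Kelly, filled where the adjusted p was under 0.05. The filled points in BE(2)-C are PPRC1 (-1.27), DCTPP1 (-1.15), PUS1 (-0.86) and NDUFAF4 (-0.76), and in Kelly PPRC1 (-0.83) and SUPV3L1 (-0.69).

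The difference of the JQ1 effect between the lines (BE(2)-C minus Kelly) passed in none of the 10, where 0.557% of all genes passed in either direction, and 3 had an unadjusted p under 0.05, as 11.3% of all genes did. It was -0.75 for PUS1 (SE 0.222, adjusted p 0.210), -0.65 for DCTPP1 (adjusted p 0.365) and -0.56 for NDUFAF4 (adjusted p 0.350), with 95% intervals of -1.23 to -0.27, -1.19 to -0.11 and -1.004 to -0.11. Falls that passed in BE(2)-C and not in Kelly are thus not shown to differ between the lines. PUS1 passed with the control signal in the fit (-0.82, adjusted p 0.0272), where 3.78% of all genes passed, and with quantile normalization (-0.94, adjusted p 0.0266). For the other 7 the difference was between -0.55 (TBRG4) and 0.36 (TFB2M).

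Between BE(2)-C and Kelly under DMSO, 1 of 10 differed, SUPV3L1, lower in BE(2)-C by a log2 difference of -0.59 (adjusted p 0.0407), where 7.89% of all genes were lower in BE(2)-C and 7.2% higher. Its BE(2)-C values, 8.59 to 8.85, lay below its Kelly values, 9.12 to 9.41. The call was lost in 8 of the 12 fits that left out 1 array, and with the replicate number as a block (adjusted p 0.0531). On the brightest probe sets DCTPP1 was the largest of the higher ones, 0.36 (adjusted p 0.236). The HSPD1 probe sets other than its brightest were higher in BE(2)-C by 0.42 to 0.64. Of these only a dim one passed, at 0.64 (adjusted p 0.0461 over all probe sets).

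Under JQ1 3 of 10 were lower in BE(2)-C than in Kelly, PUS1, NDUFAF4 and PPRC1, where 10.4% of all genes were, and none was higher, where 12.9% of all genes were. PUS1 had 8.13 to 8.30 in BE(2)-C, against 8.91 to 9.37 in Kelly, a log2 difference of -0.999 (adjusted p 0.000582). NDUFAF4 had 9.39 to 9.45, against 9.79 to 10.16 in Kelly, a difference of -0.59 (adjusted p 0.0114). PPRC1 had 8.03 to 8.25 in BE(2)-C, against 8.24 to 8.96 in Kelly, groups that overlap by the third Kelly array alone, and its call at -0.59 (adjusted p 0.0491) was lost in 9 of the 12 fits that left out 1 array. In order of mean level BE(2)-C with JQ1 was lowest of the 4 groups for 8 genes, and Kelly with DMSO was highest for 7. For HSPE1 the lowest mean was that of Kelly with JQ1, and for HSPD1 that of Kelly with DMSO, but the 4 group means of HSPD1 span only 0.21 log2 units.

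Some markers of cell types moved with JQ1. Among fibroblast and Schwann cell markers the mean log2 level of the 7 measured was 5.43 to 5.49 with JQ1, against 5.96 to 6.24 with DMSO in BE(2)-C, and 5.09 to 5.28 with JQ1, against 5.03 to 5.33 with DMSO in Kelly. The ranges were apart in BE(2)-C, where 2 of the 7 fell (2.51% of all genes did), LUM, at 4.15 with JQ1 against 6.15 with DMSO, and DCN, at 4.97 with JQ1 against 6.84 with DMSO. The other 5 did not pass there, with COL1A1 and S100B above 0, and in Kelly 1 of 7 fell, PDGFRB (-0.73, adjusted p 0.0281). The mean of the 8 neuroblast markers was 11.24 to 11.31 with JQ1, against 11.34 to 11.44 with DMSO in BE(2)-C, and 11.52 to 11.55 with JQ1, against 11.66 to 11.86 with DMSO in Kelly, ranges that were apart in both lines. Of these TH and DBH, enzymes of catecholamine synthesis, fell in both lines (-1.48 and -1.60 in BE(2)-C, -1.90 and -0.98 in Kelly), as 1.16% of all genes did. PHOX2A, GATA3 and CHGA rose in BE(2)-C (0.83, 0.58 and 0.63), where 2.18% of all genes rose. The median change of the 8 was 0.34 in BE(2)-C and 0.04 in Kelly, so the lower means do not stand for every marker. Of 7 epithelial markers KRT19 alone passed, lower in both lines (-1.30 in BE(2)-C and -1.37 in Kelly). The part of these markers' cell types in the falls of the 10 genes was not tested. None of the 7 haematopoietic markers passed in either line, and their mean had ranges that overlapped, 4.77 to 5.10 with JQ1 against 4.78 to 5.24 with DMSO in BE(2)-C.

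The control signal moved with 5 of the 10 genes once groups were in the fit, TFB2M, HSPE1, PPRC1, HSPD1 and TBRG4, and with 53.5% of all genes (9692). The first 3 were lower on arrays with a high signal (slopes of -0.39, -0.29 and -0.13), and the last 2 were higher there (0.19 and 0.26). Within groups TFB2M and HSPE1 moved together (r = 0.92) over the same 12 arrays. The brightest HSPD1 probe set ran opposite to both (r = -0.90 and -0.90). This does not hold for HSPD1 as a whole. Its other bright probe sets ran opposite to the brightest (r of -0.93 to -0.89) and had slopes of -0.20 to -0.09. With the signal in the fit 7 of 10 fell in BE(2)-C, adding TFB2M, HSPE1 and TBRG4, where the share of all genes that fell was also higher, 6.98% in that fit. In Kelly 3 fell, adding TFB2M, where 7.79% of all genes did. The 4 BE(2)-C calls and the 2 Kelly calls were kept. In the average 8 fell, adding HSPE1 (-0.40, adjusted p 0.0176) and TBRG4 (-0.45, adjusted p 0.0273), where 10.8% of all genes fell. TFB2M was then lower in BE(2)-C than in Kelly under DMSO (-0.66, adjusted p 0.00138), as were 14.9% of all genes, and under JQ1 (-0.63, adjusted p 0.00432), as were 12.3%.

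**Figure D4:**
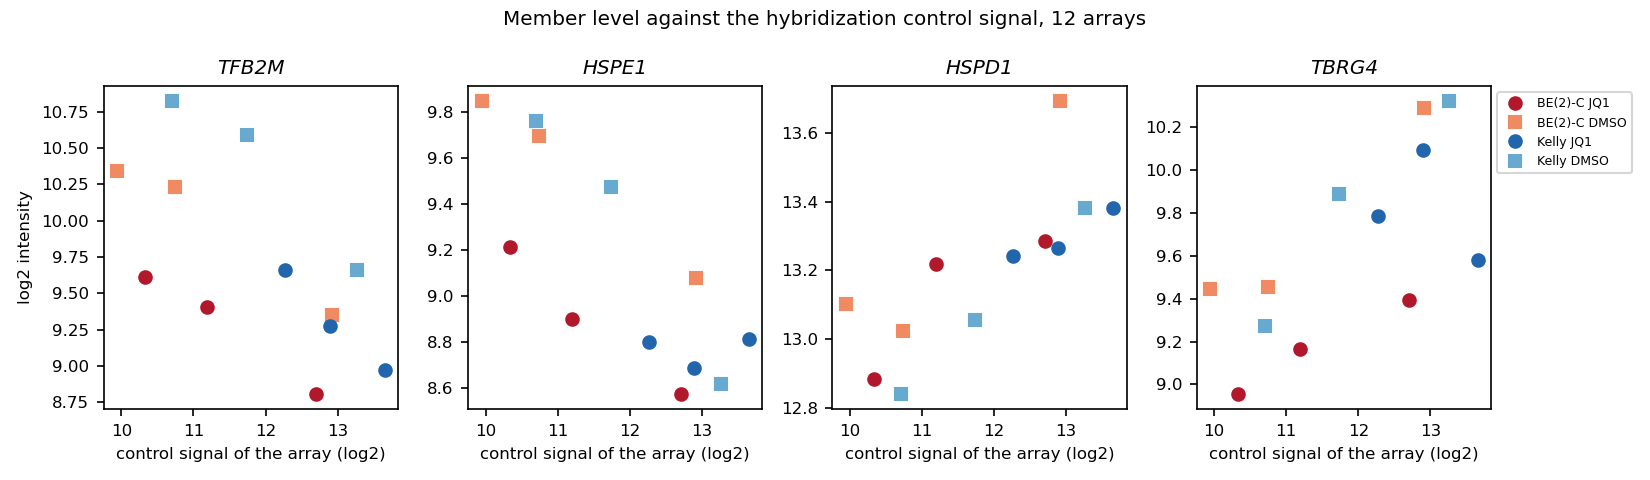
Log2 intensity of TFB2M, HSPE1, HSPD1 and TBRG4 (vertical axis) against the mean log2 signal of the 9 bacterial control probe sets (horizontal axis), 1 point an array, coloured by group. TFB2M and HSPE1 go down with the signal (slopes of -0.39 and -0.29), HSPD1, on its brightest probe set, and TBRG4 up (0.19 and 0.26).

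Centred within each line, the 10 genes gave 45 pairs, of which 37 correlated above 0 over the 12 arrays, with a median r of 0.63. Centred within each group, which takes out the JQ1 effect, 29 of the 45 were above 0, with a median r of 0.43. The highest pair by line was DCTPP1 with NDUFAF4 (r = 0.96, and 0.77 within groups). PPRC1 tracked the mean profile of the 10 most closely (r = 0.99), TBRG4 loosely (0.44), and HSPD1 had an r of -0.08. That value is for the brightest HSPD1 probe set, and the others, which ran opposite to it within groups, were not set against the profile. Each of the 10 is part of the mean it was set against, and genes with larger changes weigh more in that mean. The figures centred by line share the JQ1 effect, all of them share the arrays, and they are a description. Among all other genes the 5 with the profile most like the mean were BIRC5, NOP16, HCFC1, AEN and SLC5A6, at r of 0.983 to 0.989 over the 12 arrays.

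Genes of the same pathways, outside the 10, were counted in the average of the lines, where 7.04% of all genes fell and 4.02% rose. Of 14 genes of mitochondrial transcription and its nuclear regulators none passed, and the largest, PPARGC1A, a coactivator of the same family as PPRC1, was at -0.85 (adjusted p 0.0914). Of 16 genes of mitochondrial DNA upkeep 3 fell and 1 rose. The helicase gene TWNK fell by 0.76 on the log2 scale, and POLG, the gene of the polymerase it works with, rose by 0.68. Of 17 RNA processing genes 2 fell, PRORP, the nuclease of mitochondrial RNase P (-1.11), and REXO2, an exonuclease of short RNA (-0.46). Of 23 genes of RNA modification 2 fell, MTO1 (-1.01) and TRIT1 (-0.42), which modify tRNA.

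Of 16 complex I assembly genes 4 fell, with NDUFAF6 (-0.85), TMEM126B (-0.56) and DMAC1 (-0.58) at the lowest adjusted p. Of 20 mitochondrial chaperone and protease genes 3 fell, CLPP, a protease subunit (-1.25), CLPB, a disaggregase (-0.71), and GRPEL1, a nucleotide exchange factor (-0.91). Protein import had 6 of 23 genes lower, among them TIMM21 (-0.80), TIMM10 (-0.76) and CHCHD4 (-1.48), which import and oxidise proteins of the intermembrane space and inner membrane. No prohibitin or inner membrane scaffold gene of 11 passed (APOO the largest, -0.61, adjusted p 0.208). Of 8 genes that clean up nucleotides, 2 rose, NUDT18 (0.64) and MAPDA (0.61), and 1 fell, ITPA (-0.38). Medians were between -0.36 and -0.24 in 7 of these 9 lists, -0.09 for transcription and 0.05 for nucleotide clean-up, against 0.06 for all genes.

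**Figure D5:**
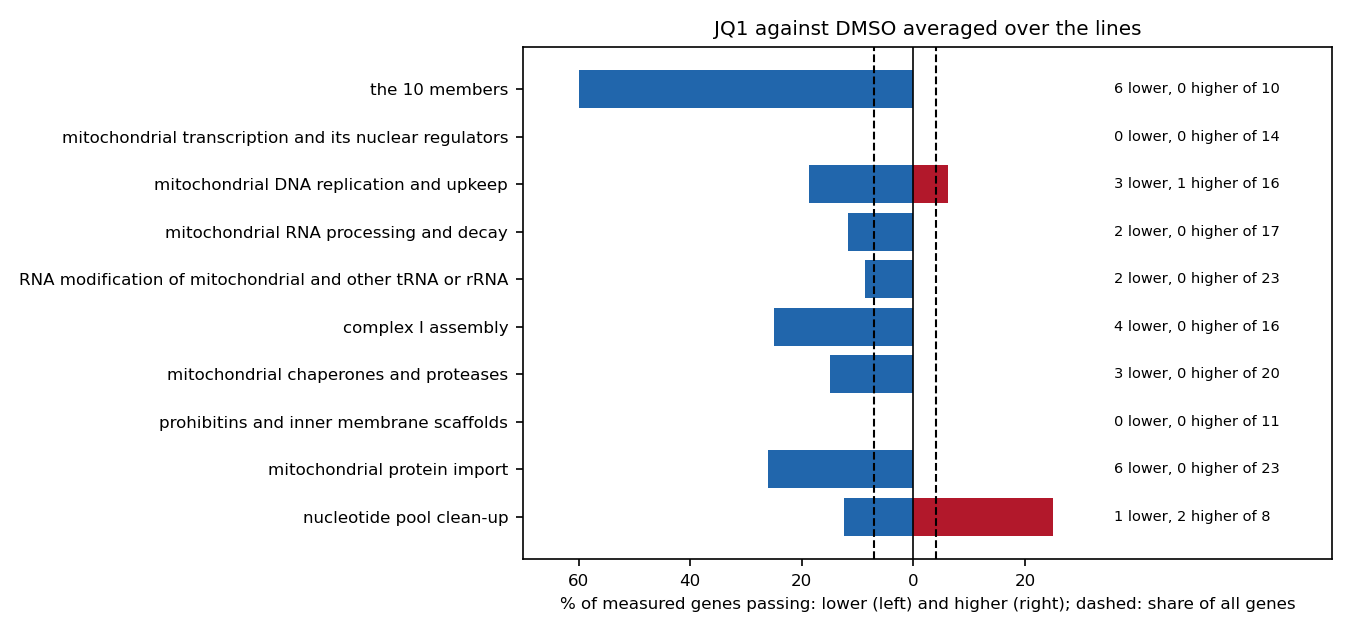
Share of measured genes in each list that fell (left) or rose (right), JQ1 against DMSO averaged over the lines, in percent, with the share of all genes dashed (7.04% lower and 4.02% higher). The 10 genes have 6 lower and none higher, and the 9 pathway lists have between 0 and 6 lower.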

How the data were processed

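The arrays were processed with RMA by the authors, per the submitters' processing notes (version not given in the sources used here), which corrects background, normalizes between arrays and sums probes into probe sets. As deposited the table gives linear intensity, not log2, which the plan had assumed, so log2 was taken here with no offset. Of 49395 probe sets, 102 controls, 1832 naming several genes and 2473 naming none were left out, and 4 that name one of the 10 genes with another gene were among the 1832. Symbols were updated through gene IDs (99.9% matched). A gene was read from its probe set with the highest mean over 12 arrays.

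Groups came from the labels. With R 4.3.3, limma 3.58.1 (lmFit, contrasts.fit, eBayes) fitted 4 group means per gene over all 12 arrays, and two-sided p-values were adjusted by Benjamini-Hochberg over 18132 genes, threshold 0.05. The procedure was tested on simulated data with noise independent between genes and arrays. That test does not cover genes that move together with the control signal. The genes, the 13 other lists (187 symbols, 177 measured) and the motifs were chosen with earlier results of these data known. From each list the text names up to 3 passing genes with the lowest adjusted p in the average, or else the largest. The genes named for likeness are the 5 outside the 10 with the highest r to their mean profile. Same-numbered Kelly JQ1 and DMSO arrays deviated together over all genes (r = 0.434, 0.228 and 0.515), so the numbers may pair them. The first Kelly JQ1 array, however, deviated as closely with the second DMSO array (r = 0.463). Same-numbered arrays of BE(2)-C did not all deviate together (-0.07, 0.53 and -0.74). The main fit used no pairing, and the replicate block used the numbers in both lines. Array number and the signal over background limit the precision, and no counting depth applies to arrays. Alternatives numbered 21.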

Additional observations from a re-analysis of the deposited data

How the results depend on the processing

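The alternatives were the mean of all probe sets of a gene, all probe sets tested, quantile normalization, an offset of 16, dim genes left out, a trended and robust prior, only the arrays compared, the replicate number as a block, the control signal as a covariate, and each array left out. Of 1240 values of a gene in a comparison, 1133 kept direction and side of the threshold, 51 no longer passed, 22 newly passed and 34 changed sign, none of which had passed as reported. The BE(2)-C count, 4, changed by over 1.5 times only with the covariate (7) and was 3 to 4 with an array left out. The average, 6, was 5 to 8, and 5 to 7 with an array left out. The Kelly count, 2, was 1 with quantile normalization, 1 with the trended prior and 0 with only the Kelly arrays. Leaving out an array gave 0 to 4, with 0 without the first or second Kelly DMSO array or the third Kelly JQ1 array, 4 without the third Kelly DMSO array, and 1 without the second Kelly JQ1 array or without any 1 BE(2)-C JQ1 array, or the second or the third BE(2)-C DMSO array. The line difference of the effect, 0, was 1 (PUS1) with quantile normalization and 1 with the covariate, and 0 to 0 with an array left out. Between the lines under DMSO the count, 1, was 2 with the mean of probe sets, 2 with the covariate, and 0 with the trended prior, the arrays compared or the replicate block, and 0 to 1 with an array left out. Under JQ1, 3 became 6 with quantile normalization, and 2 to 5 with an array left out (5 without the third Kelly JQ1 array). The replicate block changed no other count. Sign changes were, for HSPD1, Kelly -0.019, average -0.14, under JQ1 0.24 and, for PHB1 under DMSO, 0.12 with the mean of probe sets, for PUS1 0.093 and TBRG4 0.18 in Kelly and HSPE1 -0.17 under JQ1 with quantile normalization, and with the covariate HSPD1 average -0.089, HSPD1 under JQ1 0.13, HSPE1 under JQ1 -0.32 and TBRG4 under DMSO 0.088. With an array left out the ranges that crossed 0 were TBRG4 -0.29 to 0.24 and PUS1 -0.19 to 0.037 in Kelly, HSPD1 -0.27 to 0.067 in BE(2)-C and -0.032 to 0.14 on average, HSPE1 -0.37 to 0.20 for the difference of the effect, NDUFAF4 -0.088 to 0.023, HSPE1 -0.076 to 0.50, TBRG4 -0.38 to 0.15 and HSPD1 -0.029 to 0.33 under DMSO, and TFB2M -0.20 to 0.21 and HSPE1 -0.031 to 0.29 under JQ1. The causes were not tested. Over all genes 858 of 1178 Kelly calls were lower as reported and 862 of 1470 with quantile normalization. The limits are 3 arrays a group, a single dose and time, RNA levels alone, and a between-array normalization that leaves a change in total RNA unseen.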
